A study of Rattus norvegicus with 12 samples.

Results

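Promoter methylation in the kidney was compared between offspring of protein-restricted dams that were raised on a high-protein diet (mLP-HP) and offspring on the control diet in both generations (mCN-CN). The 2 groups held 3 arrays each, 6 of the 12 arrays in the series, and were defined by the maternal and offspring diets in the sample labels. All rats were male offspring of the stroke-prone spontaneously hypertensive strain (SHRSP), which develops severe hypertension and stroke, and kidneys were taken at 6 weeks of age. The mLP-HP dams received 9% casein in pregnancy and their pups 40% casein, whereas the mCN-CN dams and pups both received 20% casein. All dams and pups of both groups ate the control diet from delivery until the pups were moved to their own diets. The maternal and the postnatal diet both differed between these groups, so their parts in a difference cannot be told apart. The remaining 6 arrays, from offspring of 9% casein dams raised on 20% casein (mLP-CN) or 9% casein (mLP-LP), served as an outside measure of the methylation level and in the estimate of the spread. The DNA came from kidney tissue and not from sorted cells, and a change in the mixture of cells and a change within cells cannot be told apart. The arrays hold no expression values, so the tissue label was not checked against marker genes.

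DNA methylation adds a methyl group to cytosine, mostly where a guanine follows. Promoters rich in such CpG sites usually carry little methylation, promoters poor in them are often methylated, and methylation of a promoter tends to go with low transcription. Methyl groups come from dietary methionine and the folate cycle, which is why dietary protein in pregnancy and after weaning has been studied as a way to set methylation in organs such as the kidney. In MeDIP-chip, an antibody to 5-methylcytosine pulls down methylated fragments. These are labeled with Cy5 and hybridized with Cy3-labeled input DNA to probes tiled over promoters. The log2 ratio of Cy5 to Cy3 is therefore a relative level, with 0 at the typical probe of an array, and a positive difference means a higher ratio (hypermethylation) in the mLP-HP group.

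The 172669 probes were joined into 16174 promoter regions, named here by position on rat build rn4, and the 16055 regions with at least 3 probes were tested. No gene names come with the probes. Median intensities on the 6 arrays compared were 122 to 165 in Cy3 and 125 to 153 in Cy5, and 3 arrays per group limit the precision. The labels number the samples and do not say from how many animals each came, so p-values measure the spread between these samples. The mCN-CN arrays were scanned on day 1 (replicates 1 and 2 in scan 1, replicate 3 in scan 2 with the mLP-CN arrays) and the mLP-HP arrays on day 2 (replicate 7 in scan 3, replicates 8 and 9 in scan 4). Scan 4 also held mLP-LP replicate 10, while mLP-LP replicates 11 and 12 were scanned on day 3. No scan and no day held both groups, so the scan day and the diet cannot be told apart. Among the 12 arrays, mLP-LP replicate 10 stood apart from its own group and lay near the mLP-HP arrays, as described with the results.

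Compared with the mCN-CN group, 1359 promoters were hypermethylated (8.46% of those tested) and 1340 were hypomethylated (8.35%) in the mLP-HP group at an adjusted p under 0.05 in limma, in all 16.8% of promoters. An unadjusted p under 0.05 was found for 5384. The calls fell almost evenly in both directions, with 50.4% of them hypermethylated. The 2 sets of arrays were fully apart in 2668 of the 2699 calls, as against 41.0% of all promoters. The number of calls rested on single arrays. Without mLP-HP replicate 9 it was 701, without replicate 8 it was 1080, without replicate 7 it was 1254, and without mCN-CN replicate 1 it was 1715. On mCN-CN replicate 3, 16509 spots were flagged as outliers and set to missing, far more than on any other array. Leaving this array out gave 2073 calls, 1230 hypermethylated and 843 hypomethylated. With the scan as a random block, limma called 15 promoters, and 2797 had an unadjusted p under 0.05. No scan day held both groups, so this block cannot remove a difference between days. Without mLP-LP replicate 10, which enters only the estimate of the spread, 3883 were called, and all 2699 calls were among them.

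The differences were small against the range of the ratio. Hypermethylated promoters differed by a median log2 ratio of 0.24 (quartiles 0.21 and 0.29, largest 0.81), and hypomethylated promoters by a median of −0.24 (quartiles −0.29 and −0.21, largest −0.66). Over all tested promoters the difference had an SD of 0.14 and a median of −0.01. A change of more than 1.5-fold was reached by 5 hypermethylated promoters and 1 hypomethylated promoter, and 0 reached 2-fold. Small regions were called more often than large ones. The share called was 21.7% of the 535 promoters with 3 to 5 probes, 18.0% of those with 6 to 9, 16.0% of those with 10 to 14, and 7.0% of the 486 with 15 or more. Of the hypermethylated promoters, 420 moved from below the typical probe in the mCN-CN group to above it in the mLP-HP group. Of the hypomethylated promoters, 363 crossed in the opposite direction. The rest stayed on 1 side of the typical probe. The mCN-CN arrays enter both the start and the difference here.

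The 5 largest increases among regions of at least 5 probes, with at least 50% of their spots well above background, began below the typical probe, and all 5 were in the lowest of 5 classes of level in the other 6 arrays. Groups that do not overlap were part of the rule that named these promoters and the decreases. At chromosome 17, 58855116 to 58856669 (9 probes), the log2 ratios were 0.22, 0.10, and 0.15 in the mLP-HP arrays and −0.36, −0.40, and −0.60 in the mCN-CN arrays. The group means were 0.16 ± 0.06 and −0.46 ± 0.13 (SD, n = 3), a difference of 0.61 (standard error, SE, 0.10; limma adjusted p = 0.00376). This promoter went from clearly below to above the typical probe, the groups did not overlap, and 9 of 9 probes were higher. The promoter at chromosome 10, 44546628 to 44547906 (8 probes), reached the typical level as well. Its values were 0.19, 0.08, and −0.07 in the mLP-HP arrays and −0.42, −0.48, and −0.47 in the mCN-CN arrays, which gave a difference of 0.52 (SE 0.08, limma adjusted p = 0.0033). Its 3 mCN-CN arrays lay close together, and the lowest mLP-HP array was still far above them.

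At chromosome 1, 146544892 to 146546592 (9 probes), the mLP-HP arrays were at 0.00, −0.01, and −0.10 and the mCN-CN arrays at −0.53, −0.52, and −0.62. The difference was 0.52 (SE 0.08, limma adjusted p = 0.00347), and the 2 groups were equally tight. The other increases on chromosome 1 stayed below the typical probe. At 175180036 to 175181685 (5 probes) the mLP-HP arrays were at −0.20, −0.17, and −0.23 and the mCN-CN arrays at −0.69, −0.77, and −0.87, a difference of 0.58 (SE 0.13, limma adjusted p = 0.00927). At 94578256 to 94579828 (9 probes) the values were −0.40, −0.46, and −0.42 against −1.01, −0.93, and −0.91, a difference of 0.52 (SE 0.10, limma adjusted p = 0.0059). These 2 regions had the lowest starting values of the 5. Their increases no longer passed after loess normalization within arrays, where both differences were 0.17 (limma adjusted p = 0.165 and 0.105), and the former was 0.36 (limma adjusted p = 0.136) with the median over probes. With the scan as a random block, none of the 5 increases passed, with adjusted p from 0.0657 to 0.124.

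In the mCN-CN arrays, which also enter the difference, the 5 largest decreases began at or above the typical probe in all but 1 case. In the other 6 arrays the level was above the typical probe only at the chromosome 7 promoter (0.23). It was −0.36 on chromosome X, −0.09 on chromosome 20, −0.19 on chromosome 2, and −0.13 on chromosome 1. At chromosome 7, 12767611 to 12769393 (11 probes), the mLP-HP arrays were at −0.24, −0.11, and −0.05 and the mCN-CN arrays at 0.34, 0.38, and 0.60. The group means were −0.13 ± 0.10 and 0.44 ± 0.14 (SD, n = 3), a difference of −0.57 (SE 0.09, limma adjusted p = 0.00338). It was the highest of the 5 at the start, and 11 of 11 probes were lower. At chromosome X, 41991670 to 41992556 (5 probes), the values were −0.74, −0.74, and −0.76 in the mLP-HP arrays and −0.07, −0.19, and −0.29 in the mCN-CN arrays, a difference of −0.56 (SE 0.08, limma adjusted p = 0.00159). The mLP-HP arrays agreed closely here, with an SD of 0.01, and 5 of 5 probes were lower.

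At chromosome 20, 30910106 to 30910956 (5 probes), the mLP-HP arrays were at −0.39, −0.56, and −0.56 and the mCN-CN arrays at 0.02, 0.01, and 0.14, a difference of −0.56 (SE 0.09, limma adjusted p = 0.0037). At chromosome 2, 117293403 to 117294795 (7 probes), the values were −0.49, −0.58, and −0.51 against 0.00, −0.04, and 0.12, a difference of −0.55 (SE 0.09, limma adjusted p = 0.00376). At chromosome 1, 82600997 to 82602093 (7 probes), they were −0.60, −0.56, and −0.40 against −0.05, −0.12, and 0.18, a difference of −0.52 (SE 0.09, limma adjusted p = 0.00446). These 3 promoters were at about the typical level in the mCN-CN arrays and well below it in the mLP-HP arrays. The highest mLP-HP array lay below the lowest mCN-CN array in each, which the naming rule required. The decreases on chromosomes 7, X, and 20 passed with the scan as a random block (limma adjusted p = 0.0485 for each), and those on chromosomes 2 and 1 did not (0.0746 for each). A difference between scan days remains in these values. With the median over probes in place of the mean, the decreases on chromosomes X, 2, and 1 were −0.42, −0.33, and −0.61 and no longer passed (limma adjusted p = 0.08, 0.106, and 0.0592).

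**Figure D1:**
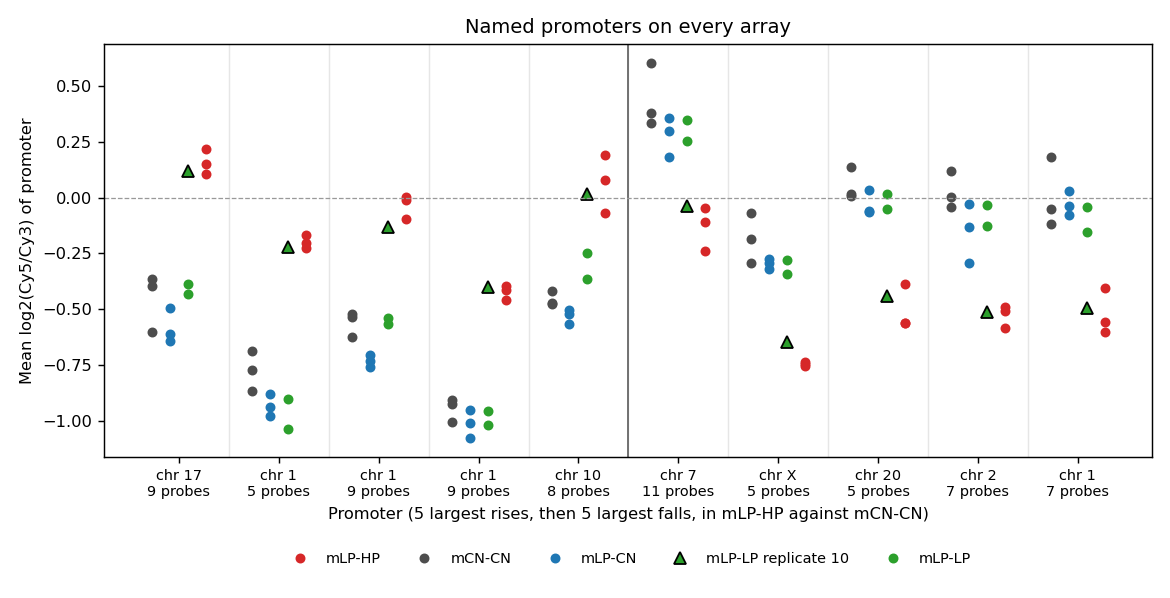
Mean log2(Cy5/Cy3) of the 10 named promoters on every array, by group, with mLP-LP replicate 10 as an outlined triangle. The naming rule required that the mLP-HP and mCN-CN points not overlap. The triangle lies nearer the mLP-HP mean than the mCN-CN mean in 10 of 10.

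Most probes of these regions moved in the direction of the mean. In the 5 largest increases, 5 to 9 probes were measured and all, or all but 1, were higher in the mLP-HP group. The probe differences ranged from 0.13 to 1.18 at the chromosome 17 promoter and from −0.50 to 1.30 at the chromosome 10 promoter, where 7 of 8 probes were higher. In the 5 largest decreases, again all or all but 1 of the probes were lower. Across all calls the agreement was looser. A median of 72.7% of the probes of a hypermethylated promoter were higher, and a median of 77.8% of the probes of a hypomethylated promoter were lower, against 60% with the sign of the mean in promoters that were not called. Every probe agreed in 48 hypermethylated (3.53%) and 103 hypomethylated promoters (7.69%), against 36 (0.27%) of those not called. The same probes make the mean on which promoters were called, so part of this agreement is built in. In regions of up to 5000 bp, the median probe difference of hypermethylated promoters was 0.24 in the inner, 0.24 in the middle, and 0.25 in the outer section by distance from the center. The corresponding values of hypomethylated promoters were −0.24, −0.22, and −0.24, so the 3 sections differed by at most 0.02 in either direction.

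**Figure D2:**
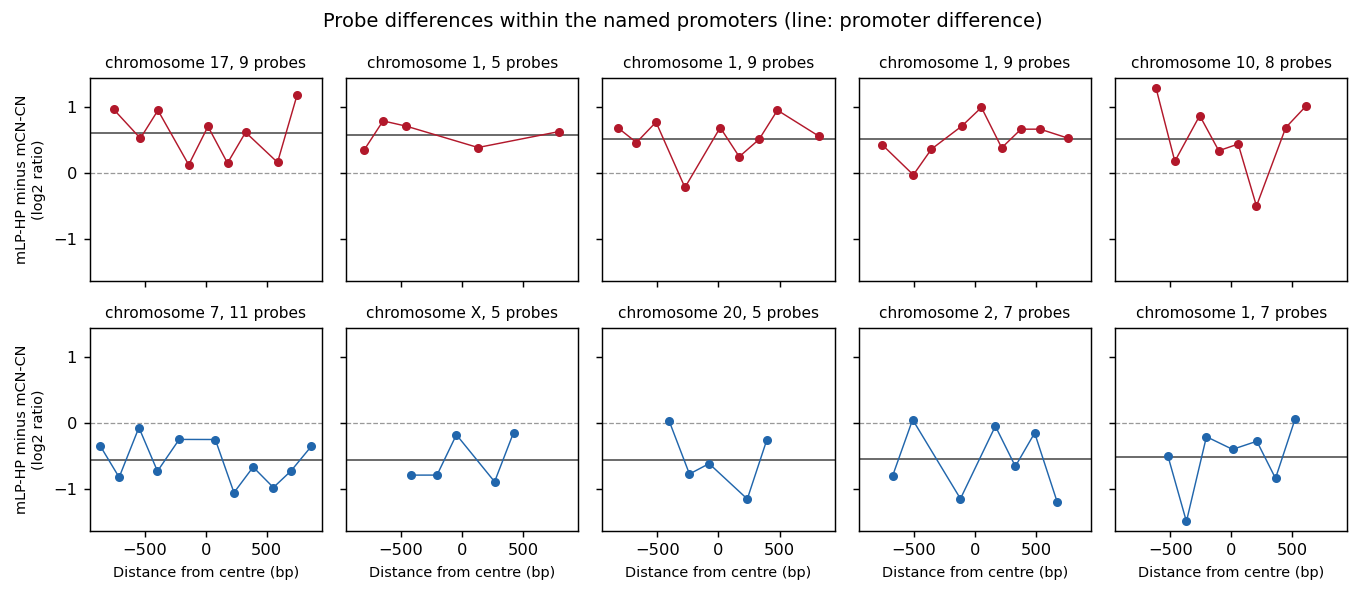
Difference between the group means (log2 ratio, mLP-HP minus mCN-CN) of each probe in the 10 named promoters, against its distance in bp from the center of the region. The horizontal line is the difference of the promoter, and all or all but 1 of the probes lie on its side of 0 in each panel.

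Called promoters were found on every chromosome. The share called in either direction ranged from 13.9% on chromosomes 14 and 18 to 21% on chromosome 12, around the 16.8% of all promoters, and the chromosomes differed more in direction than in number. Chromosome 12 had 69 hypermethylated and 21 hypomethylated promoters of 428 (16.1% and 4.91%). Chromosome 20 had 58 and 26 of 474, chromosome 19 had 48 and 24 of 399, chromosome 10 had 137 and 76 of 1301, and chromosome 7 had 109 and 61 of 1054. In the opposite direction, chromosome 11 had 19 hypermethylated and 39 hypomethylated promoters of 407, chromosome 2 had 57 and 95 of 971, and chromosome X had 33 and 62 of 560. The chromosomes with more increases were those with shorter probes. Over the 20 autosomes, the median difference of a chromosome correlated with its median probe length (Pearson's r = −0.90) and with its median level in the other 6 arrays (r = 0.87), given as a description because all chromosomes share the same arrays.

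**Figure D3:**
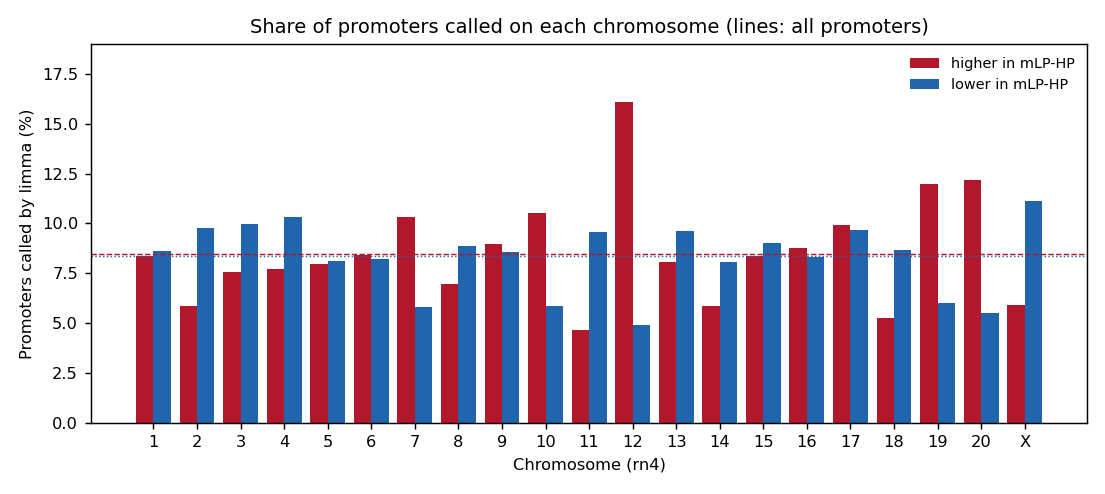
Percentage of the tested promoters of each chromosome (rn4) called hypermethylated or hypomethylated in the mLP-HP group by limma, with horizontal lines at the values for all promoters (8.46% and 8.35%). Chromosome 12 reaches 16.1% hypermethylated, and chromosome X has 11.1% hypomethylated against 5.89% hypermethylated.

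Neighboring promoters moved together only weakly. The differences of adjacent promoters had Pearson's r of 0.09 for 792 pairs less than 5 kb apart, 0.09 for 6974 pairs 5 to 50 kb apart, 0.06 for 6974 pairs 50 to 500 kb apart, and 0.00 for 1195 pairs farther apart. These values describe promoters on the same arrays. Within 5 kb of a called promoter, the next promoter was called in the same direction in 14 of 124 cases (11.3%). The share was 11.3% at 5 to 50 kb, 8.1% at 50 to 500 kb, and 10.6% (22 of 207) beyond, so it did not fall steadily with distance. Of all promoters, 8.46% were hypermethylated and 8.35% hypomethylated, and the shares among neighbors lay near these values. The nearest tested promoter to the chromosome 10 increase, 29195 bp away, was hypomethylated with a difference of −0.39 (limma adjusted p = 0.00381).

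The starting level was taken from the 6 arrays outside the comparison, so that no array of either group enters it, and promoters were divided into 5 level classes of equal size. These arrays shared scans with the groups compared, mLP-CN with mCN-CN replicate 3 and mLP-LP replicate 10 with mLP-HP replicates 8 and 9, so the level is not free of what a scan adds. Calls were found at every level. In the lowest class, where the median level was −0.46, 210 promoters were hypermethylated and 364 were hypomethylated of 3211. Class 2 had 332 and 275, class 3 had 291 and 231, class 4 had 315 and 228, and the highest, with a median level of 0.36, had 211 and 242. The median difference was −0.03 in the lowest class and between −0.01 and 0.01 in the others. For the lowest class, the per-array medians (relative to the mean of 12 arrays) were 0.01, −0.03, and −0.03 in the mLP-HP arrays and 0.00, −0.03, and 0.07 in the mCN-CN arrays, so that the groups overlapped. In the highest class they were −0.01, 0.00, and 0.01 against −0.01, 0.00, and 0.02 and overlapped too.

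This even pattern depended on the quantile normalization. Before it, the log2 ratios of promoters were spread more widely in the mLP-HP arrays, with SDs of 0.46, 0.52, and 0.49, than in the mCN-CN arrays, with SDs of 0.38, 0.39, and 0.37. The groups did not overlap (exact two-sided permutation test, p = 0.1, the smallest p that 3 against 3 arrays allow, and 0.2 after adjustment over 6 per-array measures). The wide spread was shared by mLP-LP replicate 10 (0.45) and not by replicates 11 and 12 (0.33 and 0.35). With median centering only, the lowest class had a median difference of −0.15, with 161 promoters hypermethylated and 1170 hypomethylated, and the highest class had 0.12, with 1130 and 117. Loess within arrays gave −0.13 and 0.05. Feature Extraction's processed signals, centered but not quantile normalized, gave −0.37 and 0.14, with a median of −0.06 over all promoters. Low promoters thus moved down and high promoters up where the spread of an array was kept, and they did so less or not at all where arrays were made equal in spread. Restricting the test to probes well above background turned the lowest class to 0.05, with a median of 0.05 over all promoters, and raised the share of hypermethylated calls to 72.6%. This filter kept probes well above background in Cy3 on every array and in Cy5 on at least 3 arrays. A probe could thus pass in Cy5 through the mLP-HP arrays alone, and the ratios were not centered again. These shifts may therefore be partly built in by the filter.

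After quantile normalization, the direction of the calls varied more across classes of probe length than across level classes. On this array the probes are 45 to 60 bases long, and the length was used as a stand-in for base composition. Among the 2264 promoters with a mean probe length of 45 to 46 bases, 388 were hypermethylated (17.1%) and 57 hypomethylated (2.52%), with a median difference of 0.06. Promoters of 46 to 50 bases had 807 and 547 of 8674 (9.3% and 6.31%). Among the 5117 promoters of 50 to 60 bases, 164 were hypermethylated (3.21%) and 736 hypomethylated (14.4%), with a median difference of −0.06. The per-array medians of the short-probe promoters were 0.04, 0.06, and 0.08 in the mLP-HP arrays and −0.01, 0.01, and 0.00 in the mCN-CN arrays. Those of the long-probe promoters were −0.02, −0.06, and −0.06 against −0.01, −0.02, and 0.07, and the groups overlapped. Short-probe promoters exceeded long-probe promoters by 0.65 ± 0.04 in the mLP-HP arrays and by 0.53 ± 0.06 in the mCN-CN arrays (SD, n = 3). This gap did not overlap between the groups (exact two-sided permutation test, p = 0.1, and 0.2 after adjustment). The gap was 0.64 in mLP-LP replicate 10, 0.53 in replicate 11, and 0.59 in replicate 12. Under all 7 other ways of making the ratios, the median difference between the groups was higher in short-probe than in long-probe promoters, by between 0.08 and 0.49. With each channel normalized by itself, the median difference in Cy3 (input) was −0.13, −0.05, and 0.09 from short to long probes. In Cy5 (immunoprecipitated) it was −0.02, −0.03, and −0.01, so the medians varied more with probe length in the input channel. The part of the input channel in this pattern was not tested.

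Within a class of probe length, the trend with starting level turned with the normalization. After quantile normalization, the median difference of short-probe promoters was 0.12 in the lowest level class, 0.14 in class 2, 0.11 in class 3, 0.08 in class 4, and 0.03 in the highest, where the lowest held only 50 promoters. In promoters of 46 to 50 bases it went from 0.03 to −0.02, and in long-probe promoters from −0.05 to −0.09. High promoters carried shorter probes, with a median mean length of 46.6 bases in the highest class and 52.6 in the lowest, and these trends were hidden when all lengths were pooled. With median centering only, the highest class lay above level classes 1 and 2 together by 0.04, 0.09, and 0.16 from short to long probes, whereas after quantile normalization it lay below them, with differences of −0.11, −0.05, and −0.03. Loess gave 0.06, 0.08, and 0.13, and the deposited table −0.03, −0.02, and −0.03. The direction of a trend with starting level is therefore not settled by these arrays. These are medians of classes on the same arrays and were not tested.

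**Figure D4:**
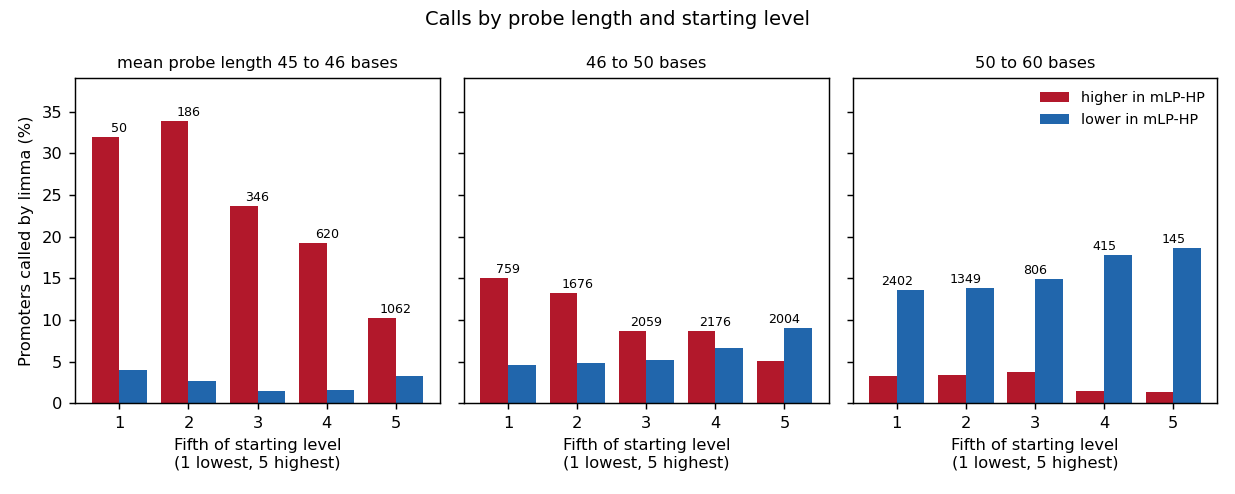
Percentage of promoters called hypermethylated or hypomethylated in the mLP-HP group by limma, in 5 classes of the starting level (mean log2 ratio of the other 6 arrays) and in 3 classes of mean probe length. Numbers above the bars are the promoters in each class. Hypermethylated calls are at 33.9% in level class 2 of short-probe promoters, and hypomethylated calls reach 18.6% in the highest level class of long-probe promoters.

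The median log2 ratio of chromosome X, present in a single copy in males, minus that of the autosomes was 0.02, 0.00, and 0.01 in the mLP-HP arrays and 0.03, 0.04, and 0.07 in the mCN-CN arrays. The mLP-HP arrays were the lower 3, with a difference of −0.04 (exact two-sided permutation test, p = 0.1, and 0.2 after adjustment). The value was 0.00 in mLP-LP replicate 10 and 0.03 and 0.01 in replicates 11 and 12. The input channel differed too. In background-corrected Cy3 by itself, chromosome X minus the autosomes was −0.38, −0.39, and −0.36 in the mLP-HP arrays. It was −0.45, −0.42, and −0.44 in the mCN-CN arrays, all lower. A higher input lowers the ratio, and the part of the input channel in this difference was not tested. Promoters of chromosome X had longer probes, with a median of 50 bases. In the long-probe class, 2.45% of the chromosome X promoters were hypermethylated and 14.7% hypomethylated, against 3.25% and 14.4% of the autosomal ones. In the middle class the shares were 8.75% and 7.92% against 9.33% and 6.28%. The median difference of chromosome X lay below that of the autosomes in all 3 length classes, at 0.03 against 0.06 in the short, −0.01 against 0.01 in the middle, and −0.08 against −0.06 in the long-probe class. The difference between chromosome X and the autosomes was 0.01 after loess and 0.00 in the deposited table, above 0 in both.

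Both channels differed between the groups. With each channel normalized and tested by itself in limma, 34.6% of promoters differed in Cy5 (immunoprecipitated DNA) and 42.3% differed in Cy3, where the input DNA carries no enrichment for methylation. The median size of a difference was 0.13 in Cy3, 0.12 in Cy5, and 0.09 in their ratio. Among the 1359 hypermethylated promoters, 488 were higher in Cy5 (35.9%, against 13.7% of all promoters) and 538 were lower in Cy3 (39.6%, against 23.8% of all promoters) in these tests. Cy5 differed without a call in Cy3 in 352, and Cy3 without a call in Cy5 in 453. Among the 1340 hypomethylated promoters, 756 were lower in Cy5 (56.4%, against 20.9% of all promoters) and 381 were higher in Cy3 (28.4%, against 18.5%), with 525 called in Cy5 alone and 298 in Cy3 alone. In either direction, Cy3 was called in 44.4% of the called promoters and in 41.9% of the others. Because each channel was normalized by itself, the differences of the channels need not add up to that of the ratio. The chromosome 17 increase, the largest of those named, had −0.31 in Cy3 and 0.19 in Cy5 (limma adjusted p = 0.00258 and 0.0295), the larger difference being in the input channel. The chromosome 10 increase had the larger difference in Cy5, at 0.55 (limma adjusted p = 0.00139), and 0.15 in Cy3 (limma adjusted p = 0.177). The chromosome 7 decrease had −0.22 in Cy5 and 0.33 in Cy3 (limma adjusted p = 0.0223 and 0.000454), and the larger difference was in the input channel as well. The part of the input channel in the calls was not tested.

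The levels of the called promoters on all 12 arrays show which arrays shared the pattern. Over the hypermethylated promoters, the median log2 ratio was 0.24, 0.23, and 0.26 on the mLP-HP arrays and −0.01, 0.01, and −0.04 on the mCN-CN arrays. It was −0.09, −0.05, and −0.06 on the mLP-CN arrays. In the mLP-LP group it was 0.21 on replicate 10, 0.03 on replicate 11, and 0.04 on replicate 12. Over the hypomethylated promoters the mLP-HP arrays were at −0.24, −0.26, and −0.25, the mCN-CN arrays at −0.01, −0.02, and 0.07, and mLP-LP replicates 10, 11, and 12 at −0.21, 0.00, and −0.05. Replicate 10 lay nearer the mLP-HP mean than the mCN-CN mean in 92.0% of the hypermethylated and 89.6% of the hypomethylated promoters, whereas replicate 11 did so in 21.3% and 16.8% and replicate 12 in 24.8% and 35.2%. Inside scan 4, the mean of mLP-HP replicates 8 and 9 exceeded mLP-LP replicate 10 by a median of 0.03 over the hypermethylated promoters and lay below it by a median of −0.04 over the hypomethylated ones. Set against mLP-LP replicates 11 and 12, the medians of the mLP-HP group were 0.20 and −0.20. The called promoters were thus high or low on the 4 arrays scanned on day 2, which had 2 different postnatal diets, and near the typical probe on the other 8. The diet of replicate 10 is known from its label alone, which no other measure here checks. The part of the scan day in the calls was not tested.

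**Figure D5:**
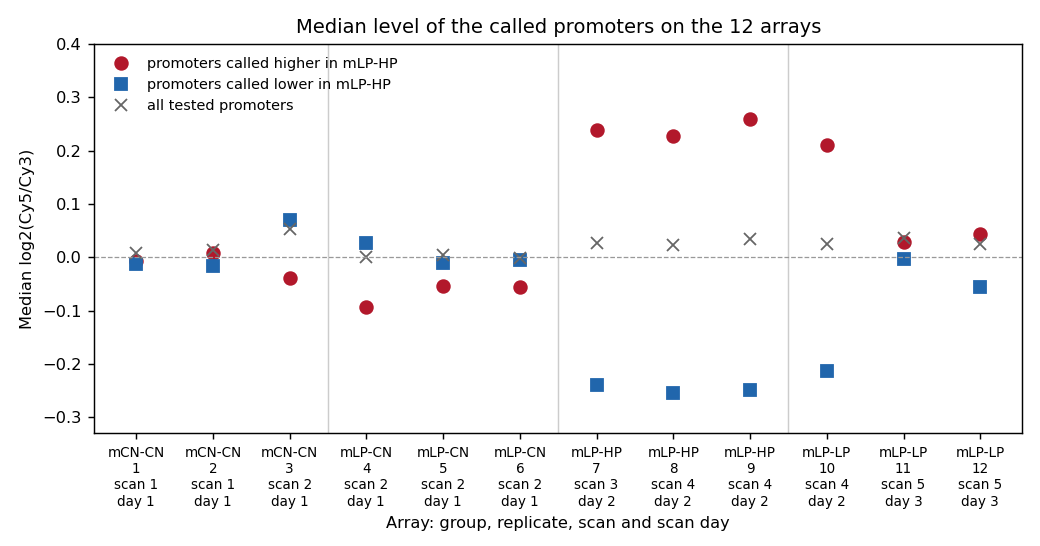
Median log2(Cy5/Cy3) over the promoters called hypermethylated and hypomethylated in the mLP-HP group and over all promoters, for each of the 12 arrays with its scan and scan day. The 3 mLP-HP arrays and mLP-LP replicate 10, all from day 2, lie at 0.21 to 0.26 and at −0.26 to −0.21, and the other 8 arrays lie between −0.09 and 0.07.

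The 15 promoters that limma called with the scan as a random block (adjusted p of 0.0379 to 0.0485) were all among the 2699 calls, and they were looked at after their values were seen. Of these, 6 were hypermethylated and 9 were hypomethylated, and 3 are the decreases on chromosomes 7, X, and 20 above. The largest was a short region at chromosome 2, 87929393 to 87929913 (4 probes). It was at 0.07, 0.05, and −0.10 in the mLP-HP arrays and at −0.66, −0.80, and −0.96 in the mCN-CN arrays, a difference of 0.81 (SE 0.10, limma adjusted p = 0.00159 without the block). In Cy5 by itself the difference was 0.39 (limma adjusted p = 0.00457), and 4 of 4 probes were higher. It had the largest difference of the 2699 called promoters.

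Decreases at promoters with a high log2 ratio were among the 15. The median level in the other 6 arrays was 0.24 in short-probe and −0.25 in long-probe promoters. The ratio thus went with probe length, and a high ratio need not mean high methylation. At chromosome 12, 33173842 to 33175542 (8 probes), the mLP-HP arrays were at 0.45, 0.47, and 0.42 and the mCN-CN arrays at 0.85, 0.92, and 0.99, a difference of −0.48 (SE 0.06). At chromosome 16, 26494024 to 26495173 (6 probes), the values were 0.39, 0.38, and 0.42 against 0.77, 0.90, and 0.90, a difference of −0.46 (SE 0.06). Both remained above the typical probe, all probes were lower, and limma gave an adjusted p of 0.00159 for each. On chromosome 12, mLP-LP replicates 10, 11, and 12 were at 0.59, 0.66, and 0.75, and on chromosome 16 at 0.62, 0.82, and 0.70, so that replicate 10 lay above every mLP-HP array at both. In 14 of the 15 promoters replicate 10 lay nearer the mLP-HP mean. Of the 15, 7 passed the threshold under every alternative run on them.

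In the smoothed log2 ratios, the windowed Kolmogorov-Smirnov test found 4268 hypermethylated and 4116 hypomethylated regions, in 46.4% of all promoters. The spread between arrays does not enter this test. It also counts each probe as independent, whereas smoothing shares values between neighboring probes, so its p-values cannot be taken at face value. Without the smoothing it found 1019 regions, 542 hypermethylated and 477 hypomethylated, and at a threshold of 3 in place of 2 for the −log10 p it found 4152. Differentially methylated regions (DMRs) had a median of 5 and 4 probes over 680 and 686 bp and median differences of 0.23 and −0.24. A hypermethylated DMR was present in 90.7% of the promoters called hypermethylated by limma, against 25% of all tested promoters, and a hypomethylated DMR in 88.5% of those called hypomethylated, against 23.2%. Both measures come from the same arrays. In 250 promoters, DMRs of both directions were found.

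The longest DMRs lay in long tiled regions. At chromosome 4, 58121144 to 58125022, a hypermethylated DMR spanned 24 probes, inside a region of 279 probes that held 3 further hypermethylated and 5 hypomethylated DMRs. The mean log2 ratio over these 24 probes was 0.20, 0.23, and 0.22 in the mLP-HP arrays and −0.06, −0.03, and 0.10 in the mCN-CN arrays. Over the whole region the difference was 0.00 (SE 0.05, limma adjusted p = 0.975), so that the change was local. At chromosome X, 14907286 to 14914875, a hypomethylated DMR spanned 42 probes of a region of 224. The mLP-HP arrays were at −0.37, −0.42, and −0.45 and the mCN-CN arrays at −0.23, −0.24, and −0.15. The whole region had a difference of −0.07 (SE 0.05, limma adjusted p = 0.34). In both DMRs mLP-LP replicate 10, at 0.24 and −0.39, lay with the mLP-HP arrays.

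The table of processed values deposited by the authors was tested as a second source. Limma called 13.1% of promoters in it, 891 hypermethylated and 1214 hypomethylated. Of the 2699 calls from the scanner files, 1570 were called in the same direction in the table (58.2%), which are 74.6% of the calls of the table. The sign was the same for 2698 of the 2699 calls and for 87.7% of all promoters. All 10 named promoters passed in the table, with differences of 0.44 to 0.65 for the increases and −0.84 to −0.65 for the decreases. Both sources come from the same scans. Calls that passed in the same direction under all 6 other ways of making the ratios, without the filter on dim probes, numbered 824, of which 303 were hypermethylated and 521 hypomethylated. At these 824 promoters mLP-LP replicate 10 differed from replicates 11 and 12 by medians of 0.20 and −0.19, and the mLP-HP group from the mCN-CN group by 0.29 and −0.28.

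The remaining per-array measures did not separate the groups. The slope of the log2 ratio on the starting level was 1.01 ± 0.04 in the mLP-HP arrays and 0.99 ± 0.03 in the mCN-CN arrays (SD, n = 3, exact two-sided permutation test, p = 0.6). Quantile normalization had already made the arrays equal in spread, which largely sets such a slope near 1. The slope therefore cannot show whether the groups differed in spread. Median Cy5 intensity was 138 ± 14.1 and 139.3 ± 11.1 (p = 0.9 by the same exact test), and median Cy3 intensity was 143.5 ± 20.0 and 156.5 ± 8.5 (p = 0.4 by the same exact test).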

How the data were processed

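MeDIP-chip data of 12 rat kidney samples were used. The immunoprecipitated DNA had been amplified over the whole genome before labeling, which can change the relative amounts of fragments. For each array the authors deposited spot intensities from Agilent Feature Extraction 11.0.1.1: median pixel intensities in Cy5 (immunoprecipitated) and Cy3 (input) without normalization, and processed intensities corrected for background and dye. Flags for outliers and signals above background, other values of the deposited files, were used as filters. A second source was the log2 values that the authors deposited as a processed table, for which the methods name median centering, quantile normalization, and linear smoothing. Its direction was checked against the scanner ratios (Spearman's rho 0.806 to 0.869 across probes), and its exact scale and centering are not stated. Coordinates are on rn4, counted from 1.

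Median signals were corrected with normexp (offset 50, all spots) in limma 3.58.1 (R 4.3.3). Control spots were dropped, outlier-flagged spots (170 to 16509 per array) were set to missing. The 16509 were on mCN-CN replicate 3, against 170 and 173 on mCN-CN replicates 1 and 2. Then log2 ratios were median centered and quantile normalized. Probes starting within 1000 bp of each other were joined, and a promoter value is the mean over its probes. Limma was fitted to all 12 arrays with group means (8 residual degrees of freedom) and Benjamini-Hochberg adjustment over 16055 promoters. For DMRs, values were smoothed linearly to 500 bp on each side and tested in 1500 bp windows with a one-sided Kolmogorov-Smirnov test (−log10 p of at least 2, at least 2 probes, merged within 500 bp) (scipy 1.17.1 and numpy 2.4.6, Python 3.11.15). Single per-array values were compared by exact two-sided permutation, adjusted over 6 measures.

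Named promoters are the 5 largest increases and the 5 largest decreases among regions of at least 5 probes that passed limma, whose groups did not overlap, and of whose spots at least 50% were well above background in both channels in each group, with the DMR of most probes in each direction. The comparison, the classes, and the tests were chosen with earlier results of these data known. Other background corrections, normalizations, summaries, filters, array weights, the scan as a random block, and leaving out each array were tried. Gene names, gene lists, and sequences need a table or genome on rn4 and are not used here.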

Additional observations from a re-analysis of the deposited data

How the results depend on the processing

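No paired analysis was possible because the replicate numbers, 1 to 12, are not shared between groups. The 2699 limma calls became 1706 without background correction, 5535 with processed signals and median centering only, 5777 with median centering only, 1117 with the median over probes, 6897 with array weights, and 15 when the scan was a random block. Leaving out 1 of the 6 arrays gave 701 to 2073, and leaving out mLP-LP replicate 10, an alternative chosen after seeing the data, gave 3883. The share of hypermethylated calls was 50.4%, but 33.1% with processed signals, 39.9% with loess, and 72.6% with the filter on dim probes. The 8384 DMRs became 5508 in the deposited table (without further smoothing, chosen after seeing the data), 1019 without smoothing, and 4152 at a threshold of 3. They numbered 8189 to 8528 without 1 array. The median difference of the lowest starting-level class (−0.03) was −0.37 with processed signals, −0.15 with median centering only, −0.13 with loess, and 0.051 with the dim filter, and −0.05 to −0.0045 without 1 array. That of the highest class (−0.0076) was 0.14, 0.12, 0.049, and 0.020 under the same settings, 0.0019 in the table, 0.0013 with outlier spots kept, −0.020 with the level from the mCN-CN arrays, and 0.027 with the level from the 6 arrays compared. Without 1 array it lay between −0.014 and 0.00098, with the sign turned without mCN-CN replicate 3. The gap between short-probe and long-probe promoters (0.12) was 0.49 with processed signals and 0.30 with median centering only, and 0.10 to 0.14 without 1 array. Chromosome X minus autosomes (−0.04) was −0.0049 without background correction, 0.0056 with loess, and 0.0031 in the table, and −0.05 to −0.03 without 1 array. The 10 named promoters passed in 167 of 180 alternatives. In 90 of these the direction was fixed in advance, because the groups do not overlap by the naming rule and only arrays or their weights changed. In the other 90 the direction was kept and 77 passed, and 7 of the 13 losses came from the random block for scan. For the longest DMRs, the chromosome 4 region moved to 0.30 with median centering only and 0.28 with the dim filter, and the chromosome X region to −0.56 with processed signals and −0.30 with median centering only. The deposited table was not smoothed a second time for the DMR test. The causes were not tested. With 8 residual degrees of freedom and a median residual SD of 0.08, small differences were not detectable.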
